A study of Mus musculus with 8 samples.

Results

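Krtdap, Sbsn and Dmkn are 3 neighbouring mouse genes that code for secreted proteins of stratified epithelium. They were taken by name from the 15995 gene symbols of the deposited table, and all 3 had a value in each of the 8 libraries. The libraries were made from epidermis of newborn C57BL/6J mice, 4 from pups of genotype ZFP750-/- (called knockout here) and 4 from wild-type pups (genotype WT). Both groups share the strain, the newborn stage and the handling: the skin lay in cold trypsin-EDTA overnight before the epidermis was peeled off and frozen. The sources used here do not give how the knockout was made or whether each library came from a different pup, so p-values measure the spread between these samples. The comparison addresses what the absence of ZFP750, a zinc finger factor that keratinocytes make as they differentiate, does to a group of abundant products of the upper epidermal layers.

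The epidermis renews itself from a basal layer whose daughter cells move outward, fill with keratin, and end as the flattened dead cells of the cornified layer. Krtdap (keratinocyte differentiation-associated protein), Sbsn (suprabasin) and Dmkn (dermokine) are switched on as cells leave the basal layer, and their products are released from suprabasal keratinocytes. Krtdap is a small secreted protein, suprabasin is a glycine-rich protein that transglutaminases can cross-link, and dermokine is a glycine- and serine-rich secreted protein made in several forms from more than 1 start site. The 3 genes are used as markers of keratinocyte differentiation.

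The genes stand side by side on chromosome 7 (GRCm38, the same assembly as the mm10 of the submitters' processing notes), all on the plus strand, within 39627 bp. Sbsn runs from 30751471 to 30756134, Dmkn from 30763756 to 30781063 and Krtdap from 30787896 to 30791097 in the GENCODE annotation. The gap between Sbsn and Dmkn is 7621 bp and that between Dmkn and Krtdap 6832 bp. Dmkn is the longest, with 6 coding transcripts of 7 to 20 exons that hold 104 to 524 codons. Sbsn has 4 coding transcripts of 4 exons each, which hold 92 to 682 codons, and Krtdap has 5, of 3 to 6 exons and 57 to 102 codons. The table gives 1 value per gene, so these forms were not told apart. Mature transcripts of Sbsn range from 432 to 2221 bases and those of Dmkn from 662 to 2063, so a value per kilobase depends on the transcripts it was computed for. The noncoding transcript Tmem147os overlaps Sbsn on the same strand and was not analysed here.

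The promoters are shown because the genes lie next to each other and because each holds a match to the same pattern of letters. The 150 bases before 4 start sites are printed from RefSeq promoter windows (GRCm38.p6, plus strand, 5′ to 3′), which were found for all 3 genes. Capitals mark the letters TGANTCA, where N is any base. This loose pattern was used for AP-1, a family of dimers of Jun and Fos proteins that act in keratinocytes.
Sbsn, chr7:30751321-30751470: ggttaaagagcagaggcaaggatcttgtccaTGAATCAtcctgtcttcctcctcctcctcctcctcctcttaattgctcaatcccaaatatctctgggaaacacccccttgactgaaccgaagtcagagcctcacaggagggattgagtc
Dmkn, upstream start, chr7:30763606-30763755: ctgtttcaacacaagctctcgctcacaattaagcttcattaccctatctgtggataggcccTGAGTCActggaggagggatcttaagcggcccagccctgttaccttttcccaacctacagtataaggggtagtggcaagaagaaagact
Dmkn, internal start, chr7:30776255-30776404: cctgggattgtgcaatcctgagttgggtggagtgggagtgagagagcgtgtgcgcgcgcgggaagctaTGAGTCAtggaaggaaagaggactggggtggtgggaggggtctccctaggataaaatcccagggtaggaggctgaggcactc
Krtdap, chr7:30787755-30787904: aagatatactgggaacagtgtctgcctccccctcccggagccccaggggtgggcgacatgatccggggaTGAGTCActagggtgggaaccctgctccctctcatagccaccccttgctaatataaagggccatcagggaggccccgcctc

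Each of the 4 windows, searched over the 250 bases before the start on both strands, holds 1 match to TGANTCA. It begins at -119 for Sbsn, at -89 for the upstream start of Dmkn, at -82 for its internal start and at -81 for Krtdap. The match reads TGAATCA for Sbsn, and TGAGTCA for both starts of Dmkn and for Krtdap. Of 32851 RefSeq windows of that length 6.749% hold the motif. The motif reported for ZNF750, CCNNAGGC, is in none of the 4 and in 20.38% of all windows, and the grainyhead motif AACNGGTT is in none of the 4 and in 1.79% of all. The letters CACCC, the core bound by Krüppel-like factors, occur 2 times for Sbsn, 2 times for the internal start of Dmkn, 3 times for Krtdap and not for the upstream start of Dmkn, against 52.01% of all windows with at least 1. A TATAAA box stands at -30 of Krtdap alone, and 12.37% of all windows hold one. No match overlaps a match to another motif. A match describes the letters of these windows and shows no binding.

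Zfp750 itself stood at 1.53 to 2.68 FPKM (fragments per kilobase of transcript, scaled to the mapped fragments of the library) among knockouts and at 81.6 to 119 among wild types, as the labels say. Absolute depth is not known from such values. The level summed over all genes, without 4 that are listed at 0 in some libraries, was 483416 to 552791. The 9 keratinocyte markers summed to 7965 to 10894 FPKM, and 2 of them rose (6.72% of all tested genes did). Markers of fibroblasts (30.6 to 251), melanocytes (13.4 to 89.8) and the hair follicle (9.93 to 50.9) were low beside them, and those of endothelium summed to at most 0.589. Wild type 3 stood apart: it had a summed level of skeletal muscle markers of 28.2 FPKM against at most 3.20 elsewhere. It was the only wild type with a high level of Xist, the noncoding RNA that coats an inactive X chromosome (118 FPKM against at most 0.0223 in the others). Among the knockouts Xist stood at 126, 84.6, 150.4 and 1.84 FPKM. High Xist was thus more frequent among the knockouts than among the wild types.

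In wild-type epidermis the 3 genes were among the most abundant transcripts. Krtdap led with 9588, 9219, 6307 and 7295 FPKM in wild types 1 to 4 and was the 4th or 5th gene of each library by level. Dmkn followed at 4762, 4277, 4724 and 3677 FPKM, in 8th place in each. Sbsn had 2416, 2142, 2687 and 1981 FPKM, in places 17 to 25. All these places are counted without Krt1, Krt10, Flg2 and Rn45s, which are listed at 0 in some libraries and very high in others. The order Krtdap, Dmkn, Sbsn held in each of the 8 libraries, and the ranges of the 3 genes did not overlap within the wild types. For comparison, the most abundant protein of the cornified envelope, Lor (loricrin), stood at 3469 ± 348 FPKM (SD, n = 4). Together the 3 genes made up 2.78% ± 0.264 (SD, n = 4) of the summed level in wild type and 2.75% ± 0.505 (SD, n = 4) in the knockouts.

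None of the 3 genes passed the test between genotypes. Krtdap stood at a mean of 1.15 times its wild-type level, Sbsn at 0.890 times and Dmkn at 0.744 times. Of the 3, 0 were called by limma at an adjusted p under 0.05, where 15.7% of 11395 tested genes were (6.72% higher and 8.94% lower in the knockouts). At an unadjusted limma p under 0.05 the count was 1, Dmkn, where 28.2% of all tested genes were. Without wild type 3 the log2 differences were 0.09 for Krtdap, -0.10 for Sbsn and -0.38 for Dmkn (limma adjusted p = 0.804, 0.741 and 0.127), none called. All 3 passed the filter on low values in both groups.

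**Figure D1:**
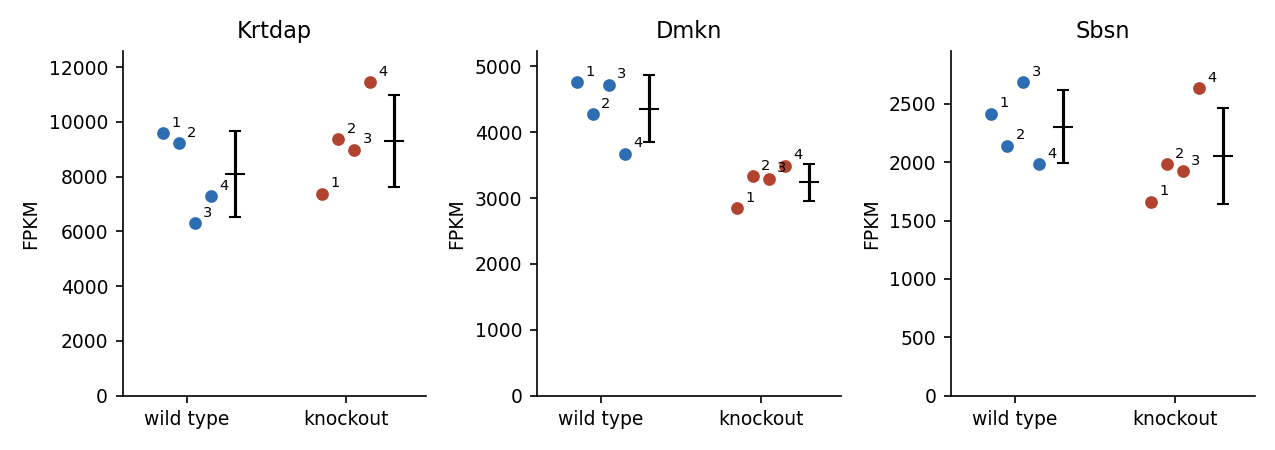
Levels of Krtdap, Dmkn and Sbsn in FPKM (vertical axes, from 0) in wild-type and knockout epidermis. Each point is 1 library with its replicate number, and the bar gives the mean and SD of 4. The knockout points of Dmkn, 2844 to 3494, all lie below the wild-type points, 3677 to 4762, while the groups overlap for Krtdap and Sbsn.

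Krtdap had 7377, 9375, 8989 and 11452 FPKM in knockouts 1 to 4. The highest library of all was knockout 4 and the lowest was wild type 3, and the groups overlapped. The means were 9298 ± 1676 FPKM (SD, n = 4) among knockouts and 8102 ± 1563 (SD, n = 4) among wild types. The log2 difference was 0.20 ± 0.22 (SE, limma adjusted p = 0.606), and its 95% interval allows a level from 0.814 to 1.63 times that of wild type. The SD between libraries was 18.0% of the mean among the knockouts and 19.3% among wild types. With quantile normalization the sign turned (-0.31, limma adjusted p = 0.319). In that scaling a gene's value follows its place in the library. Counted as above, the place of Krtdap was 5, 6, 5 and 4 in knockouts 1 to 4. In the wild types it was 4, 4, 5 and 4.

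Sbsn had 1662, 1985, 1926 and 2634 FPKM in knockouts 1 to 4. Knockout 4 again was the highest of its group, and it lay within the range of the wild types. The means were 2052 ± 413 FPKM (SD, n = 4) against 2306 ± 311 (SD, n = 4). On the log2 scale the difference was -0.18 ± 0.18 (SE, limma adjusted p = 0.564). The 95% interval runs from 0.668 to 1.17 times the wild-type level.

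Dmkn had 2844, 3333, 3296 and 3494 FPKM in knockouts 1 to 4, and each of these values lay below the lowest wild type, 3677. It was the only one of the 3 genes whose groups did not overlap, a pattern found in 21.3% of all tested genes and, in the lower direction, in 12.5%. The means were 3242 ± 279 FPKM (SD, n = 4) against 4360 ± 506 (SD, n = 4), which on the log2 scale is -0.42 ± 0.16 (SE). This missed the threshold over all genes (limma p = 0.0244, adjusted p = 0.107), while the two-sided exact permutation p was 0.0286, the smallest that the 70 assignments of 4 libraries against 4 allow. The unadjusted 95% interval runs from 0.582 to 0.954 times the wild-type level. Array weights brought the limma adjusted p to 0.0380, in a fit that called 3669 of the 11395 tested genes, against 1785 without weights.

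The levels were also set against the mean log2 level of 6 keratinocyte genes, and these values turned on 1 of the 6. The 6 were Dsg1a, Dsc1, Dsp, Jup, Sfn and Perp, which build or regulate cell junctions and keratinocyte growth. Relative to all 6, Dmkn stood at -0.37 (exact permutation p = 0.0286, the same as for its level alone), Krtdap at 0.26 (exact permutation p = 0.0571) and Sbsn at -0.13 (exact permutation p = 0.486). Sfn, the cell cycle regulator stratifin, was itself higher in the knockouts (0.63 ± 0.18, limma adjusted p = 0.0459). Without it Dmkn stood at -0.23 (exact permutation p = 0.2), Krtdap at 0.39 (exact permutation p = 0.0286) and Sbsn at 0.012 (exact permutation p = 0.971). The mean of the reference genes differed between genotypes by -0.05 with Sfn (exact permutation p = 0.657) and by -0.19 without it (exact permutation p = 0.343). Sfn was left out after its value was seen.

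The proportions of the 3 transcripts within a library separated the genotypes in each of the 3 pairs of genes, in small steps. How often ratios of other gene pairs do so was not examined. Of single tested genes, 21.3% had groups that did not overlap. A ratio of 2 genes of the same library does not depend on how that library was scaled. The ratio of Krtdap to Dmkn was 2.59, 2.81, 2.73 and 3.28 in knockouts 1 to 4 and 2.01, 2.16, 1.34 and 1.98 in wild types 1 to 4. All 4 knockouts lay above all 4 wild types, with a mean of 2.85 ± 0.297 (SD, n = 4) against 1.87 ± 0.366 (SD, n = 4). On the log2 scale the difference was 0.63, or 1.54-fold.

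The ratio of Krtdap to Sbsn was 4.44, 4.72, 4.67 and 4.35 in knockouts 1 to 4 and 3.97, 4.30, 2.35 and 3.68 in the wild types. The groups again did not overlap, but wild type 2 and knockout 4 were close. The log2 difference was 0.38, and it was 0.19 without wild type 3. The ratio of Dmkn to Sbsn went the other way, with 1.71, 1.68, 1.71 and 1.33 in the knockouts against 1.97, 2.00, 1.76 and 1.86 in the wild types. Its log2 difference was -0.24, and without knockout 4 it was -0.15. Each of the 3 ratios gave an exact permutation p of 0.0286, and 0.0286 after Benjamini-Hochberg adjustment over the 3 pairs, the smallest p this design allows. The 3 ratios are built from 3 genes, so they are not independent of each other. Leaving out 1 library ended the call of Krtdap/Sbsn for each of the 4 knockouts (adjusted exact permutation p of 0.0857 to 0.114). Its log2 difference in these fits was 0.36 to 0.40. Without wild type 3 its call held at 0.19 (adjusted exact permutation p = 0.0286). The call of Dmkn/Sbsn ended for knockout 4 and wild types 1 and 2 (0.0857), and that of Krtdap/Dmkn for knockout 4 (0.0857).

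**Figure D2:**
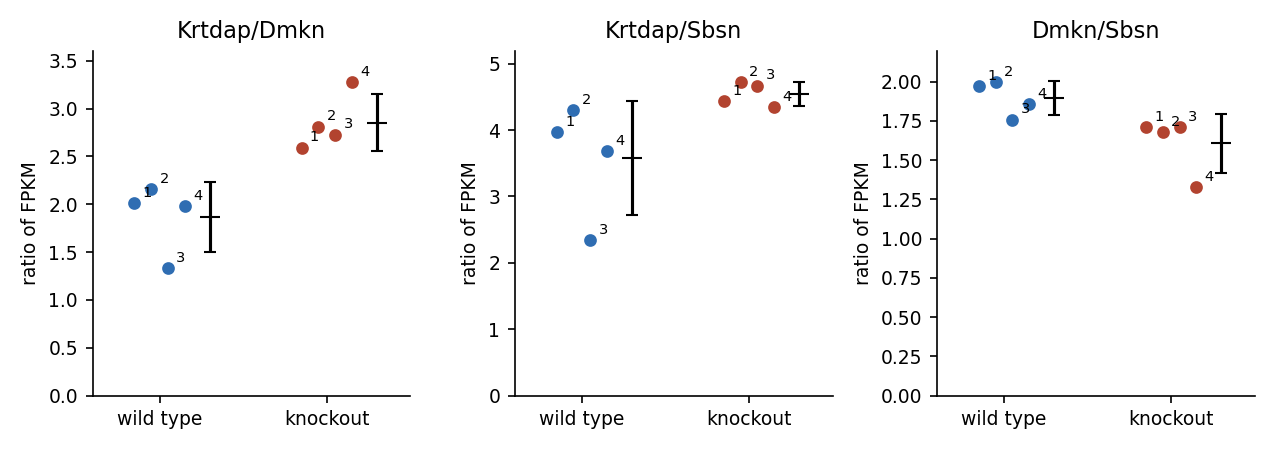
Ratios between the FPKM values of 2 genes in the same library (vertical axes, from 0) in wild-type and knockout epidermis. Points are libraries with their replicate numbers, and bars give the mean and SD of 4. Krtdap/Dmkn and Krtdap/Sbsn are higher and Dmkn/Sbsn is lower in all 4 knockouts, with wild type 3 lowest in both Krtdap ratios and knockout 4 lowest in Dmkn/Sbsn.

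Expressed as parts of the 3-gene sum, Krtdap took 62.1% to 65.1% among knockouts and 45.98% to 58.95% among wild types. Dmkn took 19.9% to 23.9% against 27.4% to 34.4%, and Sbsn 13.5% to 14.98% against 13.7% to 19.6%. The sum itself was 14592 ± 2339 FPKM (SD, n = 4) among knockouts and 14769 ± 1746 (SD, n = 4) among wild types. In bulk tissue, fewer cells of a type and less RNA per cell cannot be told apart.

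Values for Xist and for markers of other cell types are given next. With log2 Xist as a covariate the changes were 0.47 for Krtdap, -0.15 for Sbsn and -0.44 for Dmkn, with limma adjusted p of 0.290, 0.782 and 0.251. The ratios between the 3 genes were not fitted with this covariate. The Langerhans and myeloid markers summed to 1.68 to 4.30 FPKM in the knockouts against 12.3 to 36.1 in the wild types (3 of 4 tested markers lower, and the defining marker Cd207 not listed). The T cell markers summed to 0.938 to 1.95 FPKM against 5.32 to 9.52 (2 of 2 tested lower, where 8.94% of all tested genes were). The T cell sums of the knockouts lie near the filter of 1 FPKM per gene, so these markers passed it mainly through the wild types. Some of the myeloid markers may have done so too. No fibroblast or melanocyte marker passed (0 of 5 and 0 of 6 tested), where 15.7% of all tested genes did. What part other cell types have in the levels or ratios of the 3 genes was not tested.

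The other genes of the same layers were read beside the 3. Of 38 tested genes of the granular and cornified layers 2 rose, 11 fell and 25 did not pass (limma). Over all tested genes 6.72% rose and 8.94% fell. The list's median log2 change was -0.21 against 0.01 over all tested genes. The strongest changes in this list by p were the cytokine Il1f6 (Il36a), with 27.9 ± 1.51 FPKM in wild type and 98.2 ± 10.1 in the knockouts (log2 1.77 ± 0.11, limma adjusted p = 1.29e-05), the protease inhibitor Serpinb3a (-3.52 ± 0.22), the keratin Krt78 (-2.12 ± 0.17) and the transglutaminase Tgm5 (-1.29 ± 0.14). Ivl, the envelope precursor involucrin, rose by 1.46 ± 0.19. Lor, at -0.35 ± 0.18 (limma adjusted p = 0.255), did not pass. Serpinb3a belongs to a family of closely similar copies between which reads can be split, so its value is less certain.

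Other secreted proteins of stratified epithelium were listed without the 3 genes, with some members, Il1f6 among them, that are also in the list above. Of 30 tested, 5 rose, 12 fell and 13 did not pass (limma), where 6.72% of all tested genes rose and 8.94% fell. The list's median log2 change was -0.37. Leading by p were the whey acidic protein Wfdc21, listed as 1100001G20Rik, at 496 ± 75.5 FPKM in wild type and 24.7 ± 5.05 without ZFP750 (log2 -4.28 ± 0.17, limma adjusted p = 1.23e-06), and Slurp2, listed as 2300005B03Rik, from 35.7 ± 4.52 to 0.828 ± 0.388 FPKM (-4.35 ± 0.18). Slurp2 reached the filter's 4 libraries only through the wild types. Il1f6 came next, and then Tslp, a cytokine of irritated skin, which rose by 2.13 ± 0.14. Tslp was at 2.93 to 3.84 FPKM in the knockouts. Of the wild types 3 had a value of 0 and the other 0.0776, so it passed the filter only through the knockouts. Slurp1, a secreted Ly6 protein of the cornified layer, fell from 68.7 ± 6.56 to 5.53 ± 2.76 FPKM (-3.50 ± 0.25). Whether the 3 genes differ as a group from this list was not tested. The lists were written with earlier results of these data known.

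**Figure D3:**
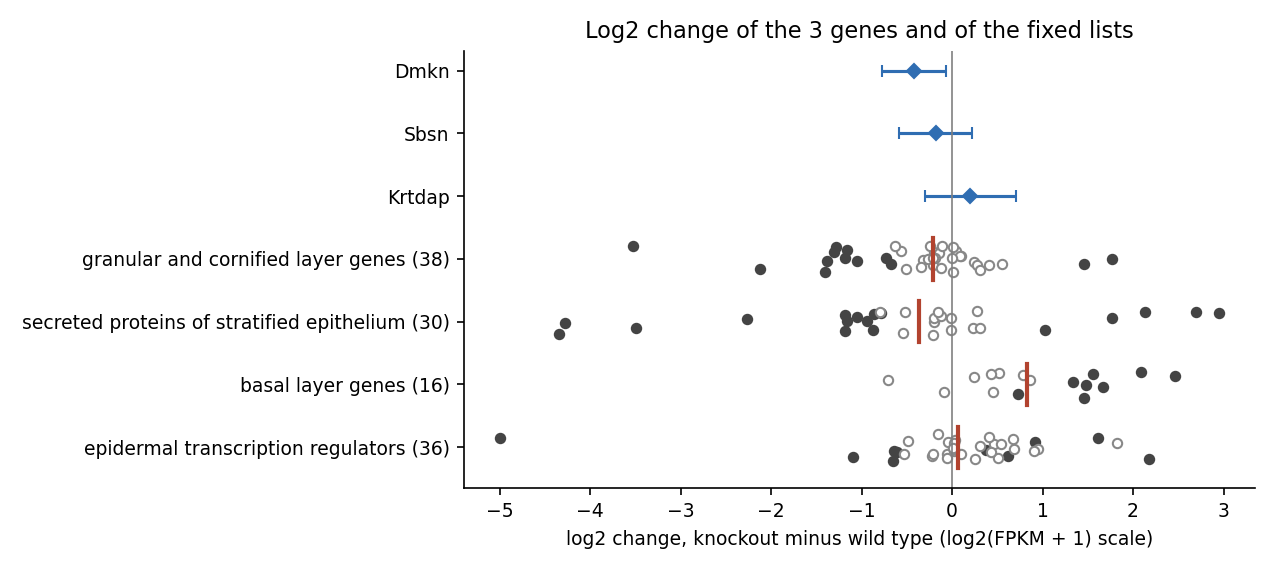
Log2 change between genotypes (horizontal axis, knockout minus wild type, log2(FPKM + 1) scale). Diamonds with bars are Dmkn, Sbsn and Krtdap with their 95% intervals. Circles are the tested genes of 4 lists (number in brackets), filled at a limma adjusted p under 0.05, and the vertical red bar is the list's median, which runs from -0.37 for secreted proteins to 0.82 for basal layer genes.

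The basal layer, which the 3 genes' products follow, was read for the opposite end of the program. Of 16 tested basal layer genes 8 rose, 0 fell and 8 did not pass (limma), where 6.72% of all tested genes rose and 8.94% fell. The list's median log2 change was 0.82. The integrin subunits Itgb1 (2.46 ± 0.33) and Itgb4 (2.09 ± 0.33), which anchor basal cells, the hyaluronan receptor Cd44 (0.73 ± 0.15) and the hemidesmosomal collagen Col17a1 (1.48 ± 0.33) had the smallest p. Krt14 rose by 1.46 ± 0.43 (limma adjusted p = 0.0464), and its partner Krt5, at 0.79 ± 0.46, did not pass (limma adjusted p = 0.302). Krt14 was lowest among the knockouts in knockout 4, at 1112 FPKM against 2202 to 3330 in the others, the library in which Krtdap, Sbsn and Dmkn were highest among the knockouts. In wild type 3 Krt14 was at 1215 FPKM, above the 417 and 613 of wild types 1 and 2. There Sbsn was the highest of the 8 libraries and Krtdap the lowest. Wild type 4 had the highest Krt14 of the wild types, 1253 FPKM, with the lowest Sbsn (1981 FPKM) and Dmkn (3677 FPKM) of that group. Krtdap was at 9588 and 9219 FPKM in wild types 1 and 2, and at 6307 and 7295 in wild types 3 and 4. The share of basal cells in each sample was not measured, and its part in the levels of Krtdap, Sbsn and Dmkn was not tested.

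Abundance sets a frame for the 3 genes as well. Of 62 genes with a mean of at least 1000 FPKM, many code for ribosomal proteins and some are small noncoding RNAs. Of the 62, 5 were called (8.06%), beside 15.7% of all tested genes. These were Lce1m (-1.38 ± 0.18) and Crct1 (-0.73 ± 0.16) of the cornified envelope region, Fam25c (-1.34 ± 0.22), the membrane protein gene Itm2b (-0.77 ± 0.20) and Krt14. All except Krt14 were named after their values were seen, and Lce1m has closely similar family members. Abundant genes of the upper layers that did not pass include the protease Asprv1, at 4644 ± 625 FPKM against 4604 ± 568 in wild type (limma adjusted p = 0.974), and the calmodulin-like Calm4, at 3227 ± 469 against 3895 ± 1092 (limma adjusted p = 0.534).

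Regulators of differentiation were listed too. Of 36 tested regulators 5 rose and 5 fell, Zfp750 among the latter, and 26 did not pass (limma). Over all tested genes 6.72% rose and 8.94% fell. Elf3, an epithelial ETS factor, rose by 2.17 ± 0.19 and Notch1 rose by 1.61 ± 0.23. Klf4, a known partner of ZFP750, had 445 ± 110.5 FPKM against 453 ± 74.6 in wild type (limma adjusted p = 0.911). Grhl3 had a log2 change of 0.54 ± 0.25 (limma adjusted p = 0.198) and Trp63, the master regulator of the epidermis, one of 0.43 ± 0.26 (limma adjusted p = 0.317). Of the AP-1 family, for which the pattern TGANTCA was searched in the 4 promoter windows, 5 genes were in the list and 0 passed (limma). Of the 5, 2 (Junb and Fosl1) had an unadjusted limma p under 0.05, as did 28.2% of all tested genes. Fosl1 had a log2 change of 1.82 ± 0.68 (limma adjusted p = 0.108), Junb one of 0.91 ± 0.31 (limma adjusted p = 0.0842), Jun one of 0.26 ± 0.38, Fosl2 one of -0.06 ± 0.18 and Fos one of 0.01 ± 0.37.

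The genes around the 3 were read next. Within 500 kb on either side 55 other protein-coding genes are annotated, of which 36 are listed in the table and 19 were tested. Of these 0 rose and 3 fell (limma), beside 15.7% called of all tested genes, with a median log2 change of -0.09. Within 100 kb only 2 were tested and neither passed. Tmem147, a membrane protein gene 21931 bp before Sbsn, had 43.0 ± 5.73 FPKM against 50.8 ± 6.08 in wild type (-0.24 ± 0.13, limma adjusted p = 0.278). Haus5, of the spindle's augmin complex, had 3.26 ± 1.11 FPKM against 2.67 ± 0.738 (limma adjusted p = 0.646). On the other side of Krtdap, the fatty acid receptor gene Ffar2 is listed but did not pass the filter on low values.

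The neighbours that fell lie farther off. Fxyd5, which encodes a regulator of the sodium pump, lies 241625 bp from the 3 genes and fell from 3.30 ± 0.854 to 0.430 ± 0.266 FPKM (log2 difference -1.59 ± 0.20, limma adjusted p = 7.16e-04). Its knockout values, 0.182 to 0.753 FPKM, lie below the filter, so it was tested only through the wild types, as was Tyrobp. Tyrobp, the signalling adaptor of myeloid and natural killer cells, lies 333886 bp away and fell from 10.4 ± 1.89 to 0.638 ± 0.532 FPKM (-2.83 ± 0.23, limma adjusted p = 6.64e-05), in the same libraries in which the myeloid markers were low. Alkbh6 lies 437167 bp away and fell from 21.8 ± 2.18 to 11.2 ± 0.840 FPKM (-0.90 ± 0.12, limma adjusted p = 8.39e-04). Other tested genes between these and the 3 genes ran from -0.28 ± 0.19 (Hspb6) to 0.20 ± 0.24 (Haus5), none called. Rbm42 (-0.03 ± 0.12) and Lsr (-0.09 ± 0.11) were among them.

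**Figure D4:**
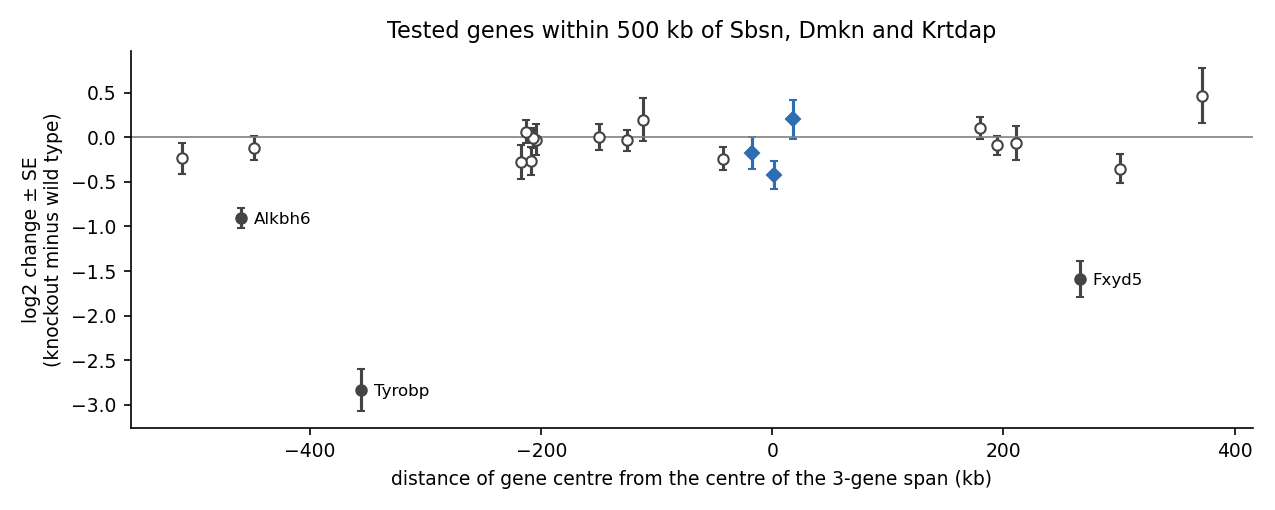
Log2 change with its SE (vertical axis) of the 19 tested genes within 500 kb, against the distance in kb of each gene's centre from the centre of the 3-gene span (horizontal axis). Blue diamonds are Sbsn, Dmkn and Krtdap from left to right, filled circles are the genes with a limma adjusted p under 0.05. The 3 filled circles, Alkbh6, Tyrobp and Fxyd5, lie more than 200 kb from the centre.

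The 3 genes did not follow each other from library to library to the same degree. Likeness was measured as Pearson's r of log2(FPKM + 1) over the 8 libraries against 10679 other tested genes, as a description. The likeness of Dmkn and Sbsn was 0.742 over all libraries and 0.832 over deviations from the genotype means. That of Krtdap with Sbsn was 0.191 and 0.411, and that of Krtdap with Dmkn -0.109 and 0.459. With so many genes and 8 libraries high values are usual: the median, over all genes, of the highest value with any other gene was 0.982.

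The genes most like Krtdap were Sar1b, a GTPase of vesicles that leave the endoplasmic reticulum (0.970), Cyp4f39, the omega-hydroxylase of acylceramide synthesis (0.963), the steroid sulfate carrier Slc10a6 (0.945), the elongation factor subunit Eef1d (0.942) and Trim29 (0.939). None of them was called. The least like were Cep70, Atp10a and Cpxm2, at -0.970 to -0.964. Over deviations from the genotype means Sar1b led again (0.983), and Emc3 (0.981) was also among the leading genes.

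The genes most like Sbsn were Solh (0.979), Ypel2 (0.964), Zfp169 (0.959), Ddi2 (0.956) and Rffl (0.950), none of them called, and the least like were Stx7, Cyr61 and Snrpg, at -0.959 to -0.951. Over deviations the leading genes were the zinc transporter Slc39a2 (0.995), the gasdermin Gsdma (0.992) and Slc22a23 (0.982). Slc39a2 fell between genotypes (-0.93 ± 0.12, limma adjusted p = 8.11e-04), while Gsdma, at -0.55 ± 0.17, did not pass (limma adjusted p = 0.0613).

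Of the 5 genes most like Dmkn, 4 were called lower in the knockouts (limma). They were the acyl-CoA synthetase Acsbg1 (0.992), the transcription factor Nfe2l3 (0.987), the transporter Mfsd7a (0.983), Ccdc120 (0.983) and the transcription factor Sox7 (0.982). Acsbg1 fell from a mean of 98.3 to 45.2 FPKM (-1.09 ± 0.19, limma adjusted p = 0.00443), and Ccdc120 stood at -0.53 ± 0.16 (limma adjusted p = 0.0574). Acsbg1 also led over deviations from the genotype means (0.990), before Ctnnbip1 (0.986) and Il22ra1 (0.984). The least like were the amino acid transporter subunit Slc3a2 (-0.980), the chaperone Dnajb4 (-0.978) and the translation repressor Eif4ebp1 (-0.977), all of which rose. These lists were chosen for likeness over the same libraries, so their direction is set by the choice.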

How the data were processed

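RNA of newborn mouse epidermis was sequenced after ribosomal depletion as stranded paired-end libraries, per the labels' protocols. The authors deposited 1 table of FPKM values per gene symbol and library, with mm10 named as the build in the submitters' processing notes. How reads were aligned, quantified and assigned to strands was not given in the sources used here. Of 15995 listed genes 2029 lack a value in at least 1 library, which was taken as 0. Krt1, Krt10, Flg2 and Rn45s, listed at exactly 0 in some libraries and very high in others, were left out. No other column of per-sample values was present.

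Genes with FPKM of at least 1 in at least 4 of 8 libraries (3 of 7 or 2 of 4 in smaller fits) were tested, 11395 in all. Values were compared as log2(FPKM + 1) with limma 3.58.1 (R 4.3.3, mean-variance trend, no covariate), with Benjamini-Hochberg adjustment over all tested genes and calls at 0.05. The fold scale understates changes of low genes. Single values and ratios were compared by two-sided exact permutation tests over samples (Python 3.11.15). For Dmkn, Krtdap and Sbsn the intervals come from the limma fit. The tests were checked on simulated data. The members and lists were chosen with earlier results of these data known. Genes named are the members, Zfp750, up to 4 members of each list with the smallest p, a few fixed names (Ivl, Lor, Slurp1, Klf4, Trp63, Grhl3, Krt5 and Krt14), tested neighbours within 100 kb or called within 500 kb, and the genes most and least like each member. Some genes that this rule names are not reported here. The AP-1 genes, Lce1m, Crct1, Fam25c, Itm2b, Asprv1, Calm4, Sfn, Rbm42, Lsr, Hspb6 and Ffar2 were added after their values were seen. Older symbols were used for Wfdc21, Slurp2, Il36a and Il36g. Replicate numbers follow the order of the deposited samples and pair nothing. The codes 11, 14 and 44 in the sample titles are not explained by the labels.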

Additional observations from a re-analysis of the deposited data

Results flagged for a closer look

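In the ratio of Dmkn to Sbsn, knockout 4 stood at 1.33 against 1.68 to 1.71 in the other 3 knockouts. Its gap to the nearest of them exceeds Dixon's 95% critical value for 4 samples (0.915 of the group's range). The same library had the highest Krtdap, Sbsn and Dmkn levels of its group. Chance alone exceeds that value in about 1 in 20 groups, and 14 groups were examined.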

How the results depend on the processing

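Over 22 alternatives for each gene, Dmkn stayed lower (-0.50 to -0.23) and was called by limma with array weights alone (-0.44, adjusted p = 0.0380). That setting called 3669 of 11395 tested genes, against 1785 in the main fit. Krtdap turned to -0.31 with quantile normalization, and limma called neither Krtdap nor Sbsn in any alternative. Relative to the 5 keratinocyte reference genes without Sfn, Sbsn turned to 0.012. Krtdap then stood at 0.39 (exact permutation p = 0.0286 against 0.4 for its level alone). Dmkn stood at -0.23 (exact permutation p = 0.2 against 0.0286). With the title code as replicate block the log2 changes were 0.20 for Krtdap, -0.18 for Sbsn and -0.42 for Dmkn (limma adjusted p = 0.566, 0.513 and 0.1002), so the block changed no call of the 3. With code 44 alone they were 0.11, -0.01 and -0.41, and with codes 11 and 14 alone 0.29, -0.34 and -0.44, none called. Without 1 library at a time Krtdap ranged from 0.09 to 0.31, Sbsn from -0.31 to -0.09 and Dmkn from -0.50 to -0.36. The ratios kept their direction in the 13 alternatives run for each. Without 1 library the log2 difference ranged from 0.19 to 0.48 for Krtdap/Sbsn, from -0.28 to -0.15 for Dmkn/Sbsn and from 0.47 to 0.70 for Krtdap/Dmkn, and the adjusted exact permutation p rose to 0.114, 0.0857 and 0.0857, with fewer assignments available. Krtdap/Sbsn lost its call without any 1 of the 4 knockouts, at log2 differences of 0.36 to 0.40. It kept its call without wild type 3, at 0.19. Dmkn/Sbsn lost its call without knockout 4 or wild types 1 or 2, and Krtdap/Dmkn without knockout 4. Within code 44 alone the differences were 0.12, -0.40 and 0.52, and within codes 11 and 14 alone 0.64, -0.09 and 0.73, and these were not tested.

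The count of called genes was 3669 with array weights (1942 higher and 1727 lower), 1141 with the Xist covariate (465 and 676), and 1123 to 2326 without 1 library (474 to 1083 higher, 649 to 1243 lower). With code 44 alone 575 were lower. The cause was not tested. The Xist covariate, the scaling to a common sum and the omission of Sfn were added after the data were seen. Depth is unknown.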
